A study of Mus musculus with 2 samples.

Results

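The genes of miR-375 and miR-7, microRNAs (miRNAs) known from endocrine secretory cells, were described in the adrenal gland of the newborn mouse. They are the 4 genes Mir375, Mir7-1, Mir7-2 and Mir7b, chosen by symbol for their role in secretory cells such as the chromaffin cells of the adrenal medulla, out of 1973 miRNA gene rows in each count table. The single group was adrenal gland tissue of the strain B6NCrl on postnatal day 0, with no treatment and no allele named in the labels, and it held 2 libraries of RNA below 30 nucleotides. Per the labels, each library was made from the 2 adrenals of 1 pup, called pup 1 and pup 2, and both pups came from 1 pregnancy. The labels give both samples the same donor identifier, so if they were 1 animal the spread given here measures technical variation alone. Neither pup was sexed, per the labels.

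A miRNA is cut from a hairpin precursor, and its bases 2 to 8, the seed, pair with target transcripts that it represses. miR-375 is known from pancreatic islet cells, where it restrains insulin secretion, and from other neuroendocrine cells. miR-7 is known from islet, pituitary and hypothalamic cells, where it limits secretion and growth signalling. The adrenal joins a steroid-producing cortex to a medulla of chromaffin cells, which store catecholamines in secretory granules. The tables hold miRNA genes only, so the transcripts that define chromaffin or cortical cells were not measured and the tissue label was not checked against them.

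The mature sequences show which members share a seed and which reads can be told apart. They are taken from RefSeq on GRCm38.p6, the build of mm10, which held at least 1 mature entry for each of the 4 genes. The Mir375 hairpin gives miR-375-5p and miR-375-3p. Each sequence runs 5′ to 3′ in lower case, with the seed in capitals:
miR-375-5p: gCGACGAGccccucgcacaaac
miR-7a-5p: uGGAAGACuagugauuuuguugu
miR-7b-5p: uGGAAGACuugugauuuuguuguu
miR-7a-1-3p: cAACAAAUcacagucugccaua
miR-7a-2-3p: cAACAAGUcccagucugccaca
miR-7b-3p: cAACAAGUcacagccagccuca

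The 5p arms of the 3 miR-7 genes shared 1 seed, which no other gene held among the 1738 mature entries of the RefSeq table. miR-7a-5p was identical in Mir7-1 and Mir7-2. Counting positions from 1 at the 5′ end, miR-7b-5p differed from miR-7a-5p by A10U, outside the seed, and was 1 base longer. The 3p arms differed more. miR-7a-2-3p differed from miR-7a-1-3p at 3 of 22 bases (A7G, A10C and U21C), and A7G lies in the seed. miR-7b-3p differed from miR-7a-2-3p at 4 bases (C10A, U14C, U16A and A20U) and shared its seed, which no other gene in the table held. Among these entries the seed of miR-375-5p was in Mir375 alone. Which arm of the hairpin gave the counts of Mir375 was not tested.

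The whole hairpins show how far the overlap between the miR-7 genes reaches. Capitals mark, in Mir7-1 and Mir7-2, the longest run the 2 hairpins share, and in Mir7b the longest run it shares with Mir7-1:
Mir7-1: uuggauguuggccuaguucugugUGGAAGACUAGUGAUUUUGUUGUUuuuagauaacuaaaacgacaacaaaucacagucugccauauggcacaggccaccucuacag
Mir7-2: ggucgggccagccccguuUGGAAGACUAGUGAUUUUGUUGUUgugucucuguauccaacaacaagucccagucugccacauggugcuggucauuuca
Mir7b: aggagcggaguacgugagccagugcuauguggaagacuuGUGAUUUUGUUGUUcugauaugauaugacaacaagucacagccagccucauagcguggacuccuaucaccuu
The run shared by Mir7-1 and Mir7-2 was 24 bases and spans the whole of miR-7a-5p and 1 further base. A read that lies inside it matches both loci equally. The authors' tables keep reads that map to several loci in a row of their own, so such reads are in neither gene's count. The counts of Mir7-1 and Mir7-2 therefore cover only reads that differ between the loci, such as those of the 3p arms, and they are not the level of miR-7a-5p. The run shared by Mir7b with either gene was 14 bases. miR-7b-5p reads differ from miR-7a-5p at 1 base, and whether some were counted at the other locus was not tested.

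The 4 genes lie on 4 chromosomes of mm10. Mir375 (ENSMUSG00000065616.2) is at chr1:74900658-74900721 on the minus strand, outside any annotated gene, 1349 bases from Cfap65 and 7514 bases from Cryba2. Mir7-1 (ENSMUSG00000065434.1) is at chr13:58392779-58392886 on the minus strand, in an intron of Hnrnpk, a gene for an RNA-binding protein that is read from the same strand. Mir7-2 (ENSMUSG00000065609.1) is at chr7:78888277-78888373 on the plus strand, outside any annotated gene and 7480 bases before Aen. Mir7b (ENSMUSG00000065491.1) is at chr17:56242988-56243098 on the plus strand, outside any annotated gene and 182 bases after the noncoding transcript AC026385.1. No member had an overlapping gene on the other strand, and each had 0 opposite-strand counts in both pups.

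Mir375 was by far the most abundant member. It had 42538 counts in pup 1 and 101213 in pup 2, out of 1131762 and 3327743 same-strand miRNA gene counts. On the scale of counts per 1000000 of these gene counts (CPM), its level was 37586 in pup 1 (exact 95% Poisson interval 37229 to 37945) and 30415 in pup 2 (30228 to 30603). Both pups were thus high, and pup 1 was the higher. The mean level was 34000.3 ± 5070.5 CPM (SD, n = 2). These are whole glands, in which fewer cells of a type and less RNA per cell cannot be told apart.

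Mir7b had the most counted reads of the miR-7 genes, 1762 and 7629. Its level was 1557 CPM in pup 1 (1485 to 1631) and 2293 CPM in pup 2 (2241 to 2345), a mean of 1925 ± 520.2 CPM (SD, n = 2). Here pup 2 was the higher. Mir7-1, the copy inside Hnrnpk, had 348 and 1457 counts. Its level was 307 CPM (276 to 342) in pup 1 and 438 CPM (416 to 461) in pup 2, a mean of 373 ± 92.2 CPM (SD, n = 2). It too was higher in pup 2. Mir7-2 had 356 and 881 counts, or 315 CPM (283 to 349) in pup 1 and 265 CPM (248 to 283) in pup 2, with a mean of 289.6 ± 35.2 CPM (SD, n = 2). Its intervals met at their edges, with pup 1 the higher. The intervals treat each read as independent and cover counting error only. Reads amplified by PCR are not independent molecules, so the intervals can be too narrow.

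**Figure D1:**
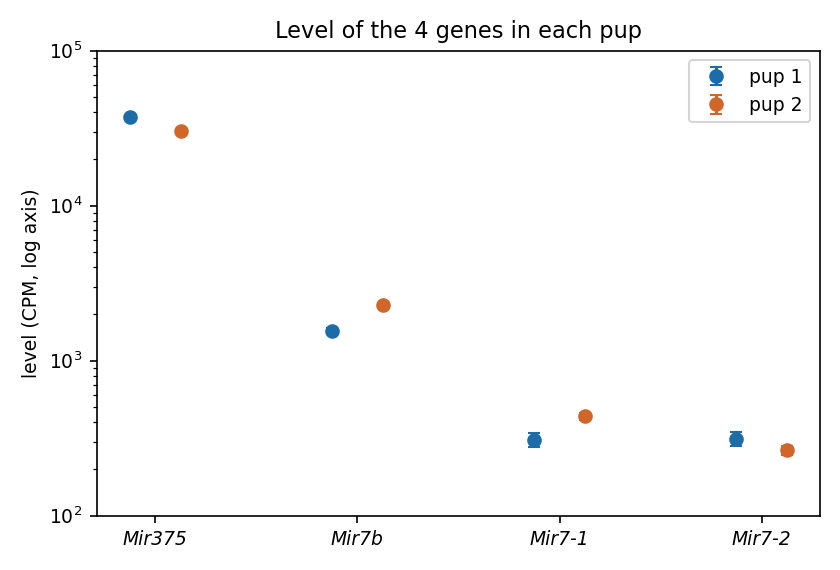
Level of each gene in pup 1 (blue) and pup 2 (orange), in CPM on a log axis; bars are exact 95% Poisson intervals and are often smaller than the points. Mir375 lies at 37586 and 30415 CPM and Mir7b between 1557 and 2293 CPM, while Mir7-1 and Mir7-2 lie between 265 and 438 CPM.

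In the order of mean CPM, Mir375 ranked 10 of 1973 genes, Mir7b 58, Mir7-1 124 and Mir7-2 137. By pup, Mir375 ranked 7 in pup 1 and 11 in pup 2, Mir7b ranked 63 and 50, Mir7-1 ranked 129 and 115, and Mir7-2 ranked 125 and 148. The order of Mir7-1 and Mir7-2 differed between the pups, but in pup 1 their counts differed by less than counting error (ratio 0.978, 0.841 to 1.14). Their mean levels lay within their spread. The steps from Mir375 to Mir7b and from Mir7b to Mir7-1 were larger than the spread, since the pups' values did not overlap. Every member had 10 CPM or more in both pups, as did 13.9% of all gene rows. Reads that mapped to several loci, 34.9% of the reads in pup 1 and 32.2% in pup 2, are in no gene row. Genes that share a mature sequence with another locus can rank lower for that reason. The ranks are those of the counted reads and not of the mature miRNAs.

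**Figure D2:**
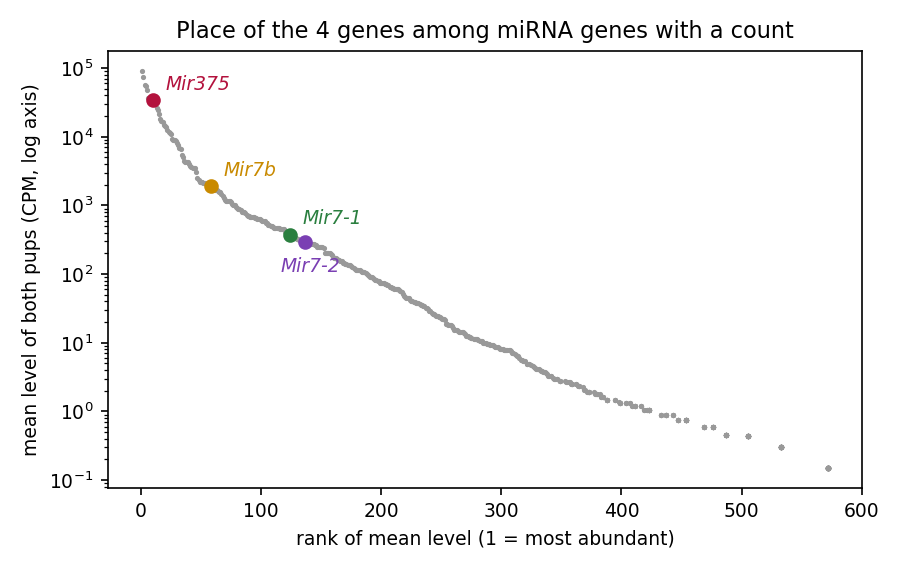
Mean level of both pups in CPM (log axis) against its rank, for all 635 miRNA genes with a count (grey) and the 4 members (coloured). Mir375 sits at rank 10, Mir7b at rank 58, and Mir7-1 and Mir7-2 at ranks 124 and 137.

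The genes next to each member in this order are close to it in mean level by construction, and they are given only to show its place. Mir375 stood between Mir10b at 34446 ± 1096 CPM and Mir335 at 33601 ± 3393 CPM. Mir7b stood between Mir361 at 1933 ± 375 CPM and Mir434 at 1859.8 ± 391 CPM. Mir7-1 stood between Mir467c at 384 ± 33.2 CPM and Mir3071 at 360.1 ± 139 CPM, and Mir7-2 between Mir183 at 295 ± 25.05 CPM and Mir376c at 284 ± 85.7 CPM (SD, n = 2 for each).

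The order of the members by mean level did not turn on gene length. The annotated genes measure 64 bases for Mir375, 108 for Mir7-1, 97 for Mir7-2 and 111 for Mir7b, whereas the reads come from arms of 22 to 24 bases. Per base of annotated gene, the mean level was 531 ± 79.2 CPM for Mir375, 17.3 ± 4.69 CPM for Mir7b, 3.45 ± 0.853 CPM for Mir7-1 and 2.99 ± 0.363 CPM for Mir7-2 (SD, n = 2). From most to least abundant, the order on this scale was that of the mean CPM, with Mir7-1 and Mir7-2 again within their spread.

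Mir375 outweighed the miR-7 genes together in both glands. The 4 members took 3.98% of all miRNA gene counts in pup 1 and 3.34% in pup 2, and the 3 miR-7 genes took 0.218% and 0.300% of them. Another gene with a miR-7 symbol, Mir7j, had 24 counts in pup 1 and 123 in pup 2. It is not a member and is left out of the sums and shares of the miR-7 genes. Mir375 had 17.2 times the summed miR-7 counts in pup 1 (95% counting interval 16.6 to 18.0) and 10.2 times in pup 2 (9.95 to 10.4). The ratio was 1.70-fold higher in pup 1, with a counting interval of 1.62 to 1.78 that leaves out equality. Per base of annotated gene the ratio was 29.2 in pup 1 and 17.3 in pup 2. Reads of miR-7a-5p that mapped to both miR-7a loci are not in these sums, so the ratio is that of the counted reads and not of the mature miRNAs.

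Among the miR-7 genes, Mir7b held most of the counted reads. Its miR-7b-5p sequence was in Mir7b alone, whereas reads of miR-7a-5p, identical in Mir7-1 and Mir7-2, are in neither count. The shares are thus not those of the mature miRNAs. It gave 71.5% of the counts of the 3 genes in pup 1 (exact Clopper-Pearson 95% interval 69.6 to 73.2) and 76.5% in pup 2 (75.7 to 77.4). Mir7-1 gave 14.1% (12.8 to 15.5) and 14.6% (13.9 to 15.3), which differed by less than the counting error. Mir7-2 gave 14.4% (13.1 to 15.9) in pup 1 and 8.84% (8.29 to 9.41) in pup 2. Its intervals did not overlap, and neither did those of Mir7b.

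**Figure D3:**
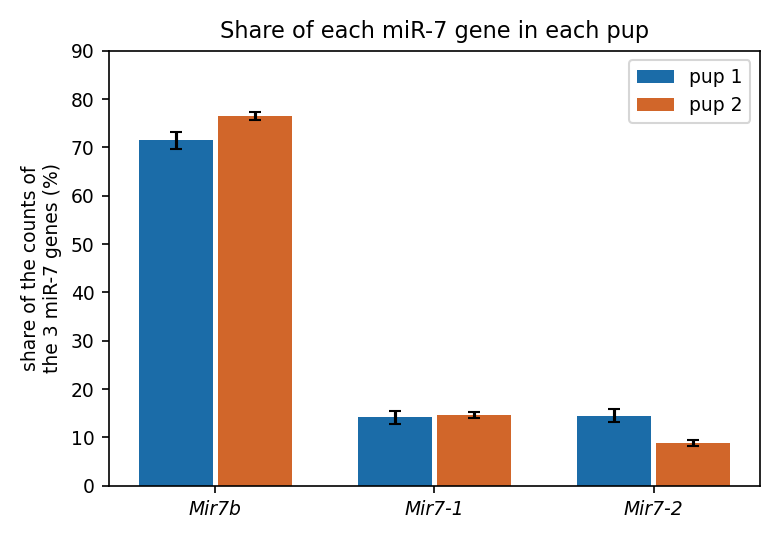
Share of the summed counts of the 3 miR-7 genes given by each gene, in percent, in pup 1 (blue) and pup 2 (orange); bars are exact 95% binomial intervals. The share of Mir7-1 is alike in both pups at 14.1% and 14.6%, while that of Mir7-2 is 14.4% in pup 1 and 8.84% in pup 2.

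The ratio of Mir7b to Mir7-1 was 5.06 in pup 1 (4.51 to 5.70) and 5.24 in pup 2 (4.95 to 5.54). These differed by less than counting error, with a pup 2 to pup 1 quotient of 1.03 (0.907 to 1.18), which still allows a difference of up to 1.18-fold. In contrast, Mir7b had 4.95 times the counts of Mir7-2 in pup 1 (4.41 to 5.56) and 8.66 times in pup 2 (8.07 to 9.30). Mir7-1 and Mir7-2, which share the 24-base run printed above, were at a ratio of 0.978 in pup 1 (0.841 to 1.14) and 1.65 in pup 2 (1.52 to 1.80). The quotient of these ratios was 1.69 (1.42 to 2.01). Scaling between libraries cancels in all of these ratios. Those of Mir7b to Mir7-1 or Mir7-2 set a gene that can keep its 5p reads beside genes that lack miR-7a-5p reads. They do not compare the levels of the mature miRNAs.

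The littermates were then compared gene by gene, as ratios of CPM. Mir375 was 1.24-fold higher in pup 1 than in pup 2 (95% counting interval 1.22 to 1.25), and Mir7-2 was 1.19-fold higher in pup 1 (1.05 to 1.35). In the other direction, Mir7b was 1.47-fold (1.40 to 1.55) and Mir7-1 1.42-fold (1.27 to 1.61) higher in pup 2. With this scaling all 4 intervals lie to 1 side of equality, but with TMM scaling Mir7-2 was 1.10-fold higher in pup 1 with an interval from 0.974 to 1.25, which includes equality. The intervals also leave out the variation between animals, for which 1 library per pup gives no test and no p-value.

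None of the 4 genes reached a 2-fold difference, which 5.28% of the 284 genes tested (mean of 10 CPM or more) did, 3.52% higher and 1.76% lower in pup 2. On the log2(CPM + 1) scale, the pup 2 over pup 1 value was -0.31 for Mir375, -0.25 for Mir7-2, 0.51 for Mir7-1 and 0.56 for Mir7b. The median over the 284 genes was 0.08, with quartiles at -0.22 and 0.36, so every member lay outside the middle range between the quartiles. For Mir7-2 and Mir7-1 the counting interval reached into that range. Relative to that median, Mir375 stood at -0.38 and Mir7-2 at -0.33, while Mir7-1 stood at 0.43 and Mir7b at 0.48. Differences of this size were common. An absolute log2 ratio at least as large was found in 51.4% of the genes tested for Mir375, 58.5% for Mir7-2, 26.8% for Mir7-1 and 21.5% for Mir7b.

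**Figure D4:**
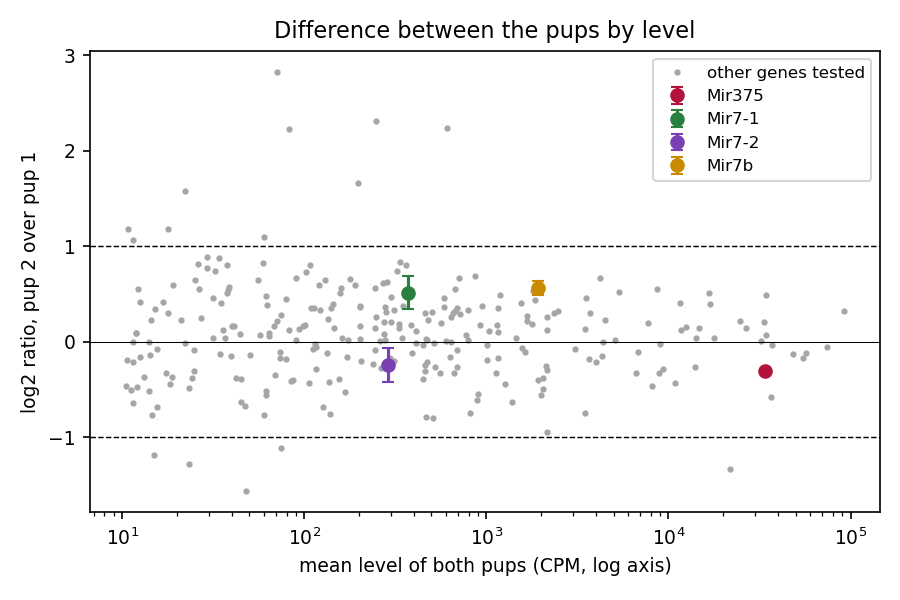
Log2 ratio of pup 2 over pup 1 against the mean level in CPM (log axis) for the 284 genes tested; members are coloured, with 95% counting intervals, and dashed lines mark a 2-fold difference. Mir7b and Mir7-1 lie above 0 at 0.56 and 0.51, Mir375 and Mir7-2 below it at -0.31 and -0.25, all within the dashed lines.

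The genes most like each member were those with the smallest distance in log2(CPM + 1) over the 2 pups. For Mir375 they were Mirlet7d at a distance of 0.23, Mir22 at 0.25 and Mir10b at 0.26. Of these, Mirlet7d was also higher in pup 1, with 43997 CPM against 29497 CPM. For Mir7b they were Mir434 at 0.10, Mir16-1 at 0.12 and Mir140 at 0.29. For Mir7-1 they were Mir224 at 0.16, Mir3071 at 0.24 and Mir467c at 0.25, and for Mir7-2 they were Mir183 at 0.07, Mir330 at 0.14 and Mir673 at 0.19. With 2 libraries this measure mostly reflects level.

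Other miRNAs known from endocrine cells and neurons were set beside the members. Of 20 listed genes, 19 had a row. Mir9-2, Mir9-3, Mir124a-1, Mir124a-2 and Mir124a-3, genes of miRNAs abundant in neurons, were at 0 counts in each library. A count of 0 allows a level of up to 3 counts, or 2.65 CPM for pup 1 and 0.902 CPM for pup 2. For these copies too, reads that map to several loci are not in the count. In all, 13 of the 19 genes had 10 CPM or more in both pups. The most abundant were Mir335, which is encoded within Mest, Mir139 with 15271 CPM in pup 1 and 12710 CPM in pup 2, and Mir137, a neuronal miRNA, with 752 and 790.3 CPM.

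Mir375 and Mir7b stood among the 4 most abundant genes when members and list were ranked together, with Mir335 and Mir139. Members and list were chosen with earlier results of these data known, so this describes the named genes only. Mir183, Mir182 and Mir96 come from a cluster known from sensory cells. Mir183 had 313 and 277 CPM, close to Mir7-2 in both pups, Mir182 had 242 and 311 CPM, and Mir96 had 53.9 and 70.6 CPM. Mir184, known from islet cells, had 15 and 30 counts. Of the 14 listed genes whose mean reached 10 CPM, 0 passed 2-fold, against the 5.28% of all genes tested. Their median log2 ratio was 0.22, beside 0.08 for all genes tested, with 9 above 0 and 5 below.

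**Figure D5:**
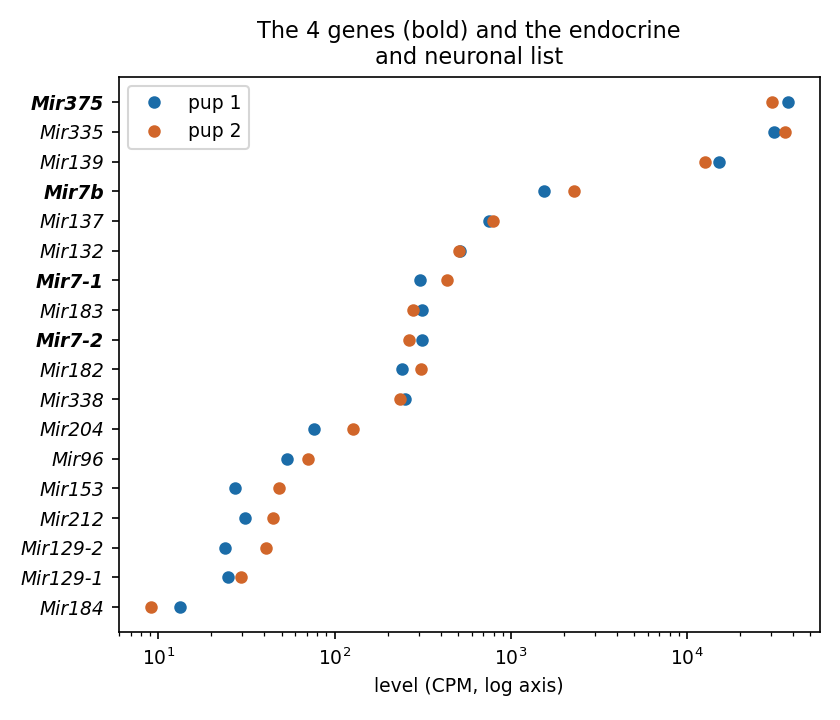
Level in CPM (log axis) of the 4 members (bold) and the 14 genes of the endocrine and neuronal list with a count, in pup 1 (blue) and pup 2 (orange), ordered by mean level. Mir375, Mir335 and Mir139 lead and Mir7b follows, while Mir7-1 and Mir7-2 lie among Mir132, Mir183, Mir182 and Mir338.

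Markers of cells that a dissection could carry along were measured in the same libraries. The acinar miRNAs of the pancreas, an organ where Mir375 is also known, were at or near 0. Mir216a had 0 counts in both pups, Mir216b had 0 and 1 and Mir217 had 1 and 6, a sum of 0.884 CPM for pup 1 and of 2.10 CPM for pup 2. These genes mark exocrine cells, and no marker of islets apart from the members and Mir184 was listed. The 4 kidney and gut epithelial genes summed to 216 CPM (pup 1) and 225 CPM (pup 2), but they did not move together. Mir215 was more than 2-fold lower in pup 2, with 72.5 and 23.7 CPM, Mir194-1 had 15 and 9 counts, and Mir192 had 101 and 158 CPM.

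The 7 other epithelial genes, led by Mir203, Mir429 and Mir200c, summed to 947 and 1309 CPM. Most of the higher sum in pup 2 came from Mir429, with 93.7 and 299.6 CPM, and Mir200b, with 28.3 and 136 CPM, both past 2-fold, whereas Mir203 had 709.5 and 667 CPM. The hepatocyte miRNA Mir122 had 2979 and 4081 CPM, the skeletal muscle genes Mir206 and Mir133b summed to 82.2 and 412 CPM, and the 4 blood genes, led by Mir223 and Mir451a, summed to 1044 and 1220 CPM. The part of these cells in the members' differences between the pups was not tested.

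The libraries differed 2.94-fold in depth. Same-strand gene counts made up 50.4% of the reads in pup 1 and 52.7% in pup 2, and multi-mapped reads made up 34.9% and 32.2%.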

How the data were processed

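Small RNA of the 2 adrenals of each pup was sequenced. Raw counts of reads on each miRNA gene were deposited by the authors, 1 table per library, unscaled. Per the sample notes deposited with them, reads were placed on mm10 with GENCODE M4, with an aligner not given in the sources used here. For levels, the column of same-strand counts was used, and 4 rows that name no gene (unmapped, multi-mapped, no feature, ambiguous) were left out of library sizes. Column order was read from the layout and the column sums. Of 1973 gene identifiers, 1894 matched a GENCODE M21 symbol. Sequences and seeds are from RefSeq (GRCm38.p6), and RefSeq's hairpin coordinates equal those of GENCODE M21 for the members.

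CPM were computed over all gene rows. Differences between pups used log2 of CPM plus a prior of 1 CPM, a minimum mean level of 10 CPM and a threshold of 2-fold. With 1 group of 2 libraries no test between groups exists, and no p-value was computed. Intervals are exact 95% Poisson, Clopper-Pearson or conditional ones for 2 counts and cover counting error only. Alternatives used edgeR 4.0.16 (TMM) and DESeq2 1.42.0 (size factors) in R 4.3.3, other priors, filters, columns and denominators. Other steps used Python 3.11.15, numpy 2.4.6, scipy 1.17.1 and pandas 2.3.3. The interval and the 2-fold call were tested on simulated Poisson counts, with planted changes larger than the 2-fold threshold. The simulation held no variation between animals or from PCR, so it checks the computation alone.

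The members and lists were chosen with earlier results of these data known. Genes were named by rule: the members, the 3 genes nearest to each in level, the 3 most abundant of each list and genes sharing a member's seed. Neighbours in the order of levels, other list genes, Mir7j and genes of the other pairs with an identical mature sequence were named after their values were seen.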

Additional observations from a re-analysis of the deposited data

Results flagged for a closer look

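Reads that mapped to several loci stand outside the gene rows and were not used. They numbered 785013 in pup 1 and 2032469 in pup 2. Any read that lies within the 24 bases shared by the Mir7-1 and Mir7-2 hairpins, including all of miR-7a-5p, belongs there. How many of these reads were miR-7a-5p is not in the tables used here.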

How the results depend on the processing

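Over all 24 alternative values of the members' log2 ratios between the pups, the sign was that of the main value and 0 passed 2-fold. Those with another prior could not change sign. In the unstranded column the members' counts were the same, and only the library sums differed. The signs were thus put to a trial only by the other scalings and the other denominator. TMM scaling moved the median of all genes tested up by 0.10. Relative to the median, Mir375 stood at -0.38 and Mir7b at 0.48 under TMM. A change of scaling shifts all genes alike, so these distances can change only through the prior or the filter. That they were kept shows nothing of stability. The log2 ratio of Mir375 was -0.20 with TMM, -0.27 with DESeq2 size factors and -0.24 with all reads as denominator, and that of Mir7b was 0.66 with TMM. With all reads as denominator, mean levels fell by construction to 17487 CPM for Mir375, 997 CPM for Mir7b, 193 CPM for Mir7-1 and 149 CPM for Mir7-2. The number of genes at least 2-fold different, 15, became 85 with no filter on low counts (635 genes tested) and 4 at a mean of at least 100 CPM (188 tested). The log2 ratio of Mir375 to the summed miR-7 genes, 3.73 as a mean of the pups, was 4.49 per length of annotated gene, and 3.34 to 4.11 when 1 pup was left out. Apart from 10 values that leave 1 pup out of a mean of 2, which cannot move by more than the SD and so show nothing of stability, 45 of 56 alternative values moved by less than the spread between pups, the counting interval or 1.5-fold for counts. The 56 include the members' ratios with another prior or the unstranded column, which could hardly move. With TMM the counting interval of Mir7-2 included equality. No paired analysis was possible because the series holds 1 group. Depth was not limiting for the members, the lowest of which had 348 counts, but with 2 pups the spread between animals is poorly known.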

Other observations

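After the values were seen, the pair Mir7-1 and Mir7-2 was set beside the other pairs of miRNA genes that carry an identical mature sequence in RefSeq and have a mean of at least 10 CPM each. The table lists 16 such pairs over 31 genes, but it is not complete, so the values hold for the listed pairs only. The log2 ratios between the pups of Mir7-1 and Mir7-2 lay 0.76 apart. The median over the listed pairs was 0.33, with a range from 0.09 to 1.00, and 3 pairs lay further apart. Each of these 3 holds a gene with fewer counts than Mir7-1 or Mir7-2. In pup 1 and pup 2, Mir128-2 had 17 and 77 counts, Mir181a-2 had 43 and 274, and Mir26a-1 had 13 and 33. Their differences carry more counting error, and no interval was computed for the pairs. In mean level, Mir7-1 and Mir7-2 differed by 0.36 on the log2 scale, against a median of 0.94, and 4 pairs were closer. In every listed pair, reads of the shared sequence are not in the gene counts.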
